A study of Capra hircus with 10 samples.

Results

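The genes described here are the glucose and amino acid transporters of the goat ovary. They are the protein-coding gene symbols of 7 solute carrier families, named SLC1A, SLC2A, SLC3A, SLC6A, SLC7A, SLC36A and SLC38A. The table of transcript levels held 64 such symbols among 20587 protein-coding symbols, with 139 transcripts between them. Of the 64, 62 are transporters or subunits of transporters. SLC2A4RG, a transcription factor, and SLC7A6OS, a gene next to SLC7A6, match by name alone and were kept apart. SLC6A was the largest family with 18 symbols, followed by SLC2A and SLC7A with 12 each, SLC38A with 11, SLC1A with 7, and SLC3A and SLC36A with 2 each.

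The ovaries came from Anhui white goats and were collected at a slaughterhouse, with 5 in luteal ovaries and 5 in the follicular phase of the estrous cycle. No treatment or genetic change separated the groups, and the ages of the goats and the way the phase was judged are not given in the sources used here. Ribosomal RNA was removed from the total RNA of each ovary, and 1 strand-specific, paired-end library per ovary was sequenced. The labels do not state that the ovaries came from separate goats, so the p-values measure the spread between these ovaries. Levels are given as FPKM, the sequenced fragments of a transcript divided by its length and by the mapped fragments of the library, summed over the transcripts of a gene.

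Glucose and other hexoses cross the cell membrane through the SLC2A proteins (the GLUT family), which let the sugar move down its gradient. Most amino acids are either drawn in with sodium, as by many SLC1A, SLC6A and SLC38A proteins, or exchanged for another amino acid by pairs of a heavy chain (SLC3A) and a light chain (SLC7A). In the ovary, granulosa cells are known to supply the oocyte with sugars and amino acids that it takes up poorly by itself, and the corpus luteum, which forms from the ovulated follicle, is a tissue of very high blood supply and metabolism.

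Luteal ovaries were compared with follicular ovaries by limma, 2-sided, with log2(FPKM + 0.1) as the level of a gene, so that a positive log2 fold change means higher in the luteal phase. Benjamini-Hochberg adjustment ran over the 15359 genes that reached an FPKM of 0.1 in 5 or more ovaries. An adjusted p under 0.05 is called a change. Of the 64 symbols 50 were tested, and 22 of them (44%) were called, against 43.7% of all genes tested. In the luteal phase 10 were higher (20%, against 15.9% of all genes) and in the follicular phase 12 were higher (24%, against 27.8%). These shares were close to those of all genes, which are also the background for the counts of each role group. Without SLC7A4, which was tested only through the phase in which it was high, 21 of 49 were called, 11 of them on the follicular side. Without the pair of non-transporters, 10 of 48 tested transporters were higher in luteal ovaries and 11 in the follicular phase. The median log2 fold change of the 48 transporters was -0.07, beside -0.14 over all genes. With every ovary shifted to the same median log value, these medians were 0.02 and -0.05. The share of all calls that were higher in the luteal phase was 36.3%, and it was 48.8% after that shift, 41.8% after quantile normalization and 52.1% with levels rescaled to TPM, in which every ovary has the same total. The phases did not overlap for 15 of the 50 tested symbols, against 28.4% of all genes. A call with a log2 fold change of at least 1 in size was made for 10 of the 50 (20%). This share was higher than the 9.63% of all genes, and the difference was not tested.

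Transporter genes changed in both directions. SLC6A6, the taurine transporter, SLC2A11, a hexose transporter, and SLC7A2, a transporter of arginine and lysine, rose in the luteal phase. SLC7A11, the cystine importer that feeds glutathione synthesis, and SLC7A5, a main carrier of large neutral amino acids, were higher in the follicular phase. SLC38A2, a sodium-coupled transporter of glutamine and alanine, was by far the most abundant transporter in every ovary and rose in the luteal phase as well. SLC2A1 and SLC2A3, the most abundant glucose transporters, were not called.

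**Figure D1:**
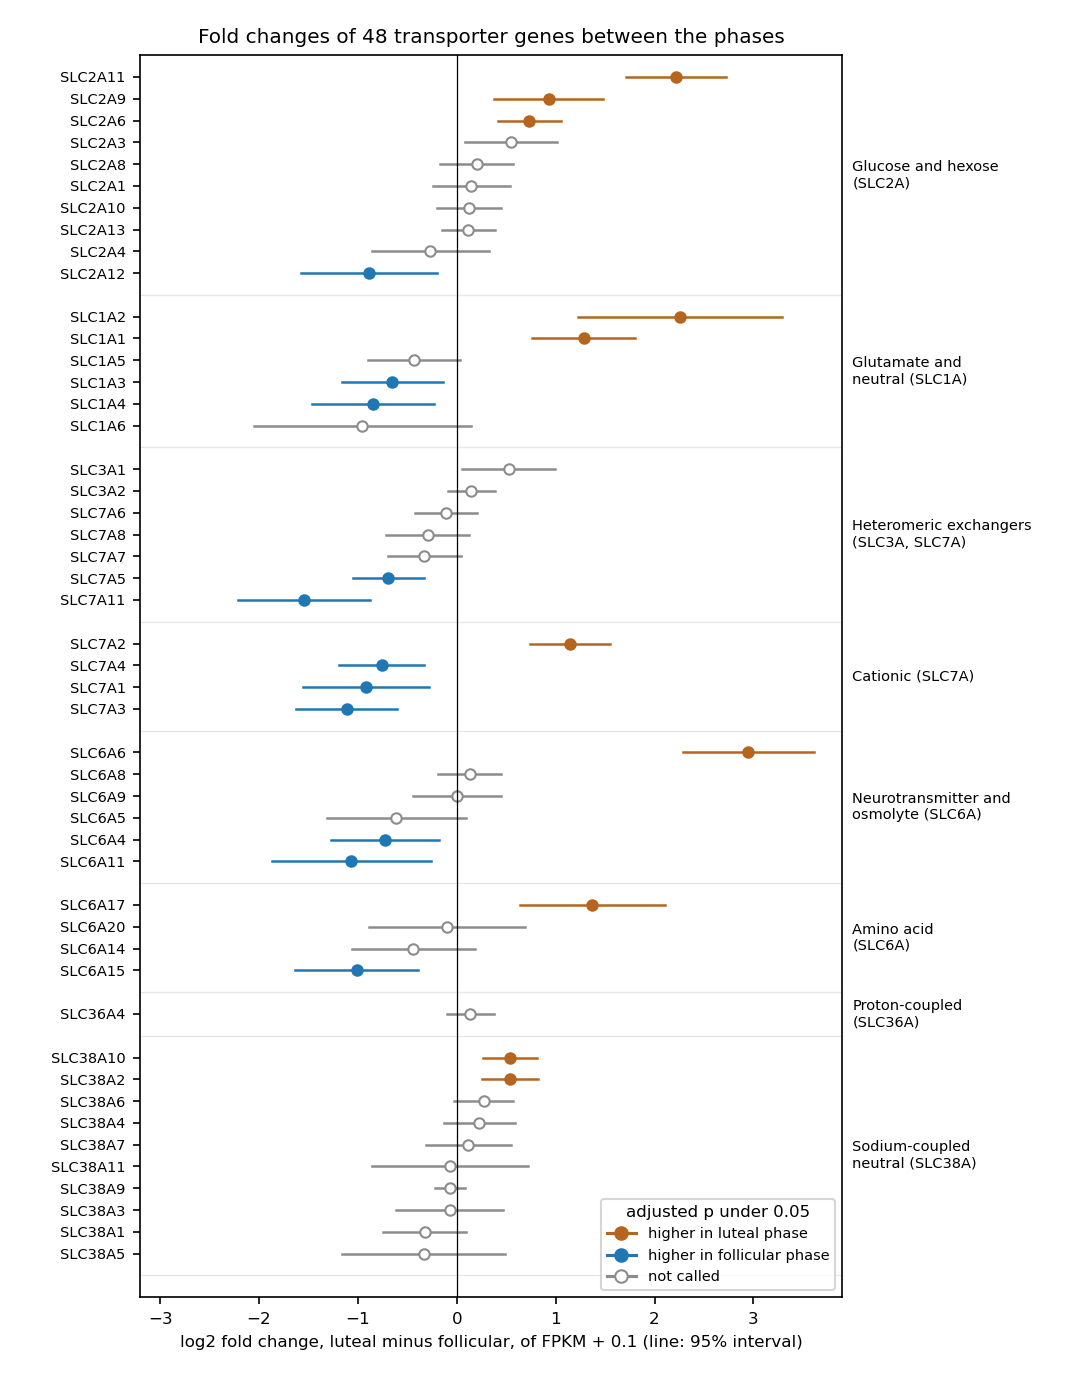
Log2 fold changes (luteal minus follicular, on FPKM + 0.1) of the 48 tested transporters, sorted by role, with 95% intervals as horizontal lines. Filled points are genes with an adjusted p under 0.05, orange for the 10 higher in the luteal phase and blue for the 11 higher in the follicular phase, and open points are genes that were not called. SLC6A6 lies farthest to the right at 2.95 and SLC7A11 farthest to the left at -1.55.

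Whole ovaries were sequenced, so fewer cells of a type and less RNA per cell cannot be told apart. The labels of the phases were checked against marker genes. All 7 corpus luteum markers in the table were higher in the luteal phase, and their summed FPKM was 11576 to 14668 in luteal ovaries and 339 to 518 in follicular ovaries. Of the markers tested, 6 of 7 for endothelium (summed FPKM 255 to 323 against 148 to 177) and 4 of 6 for macrophages (208 to 289 against 79.8 to 145) were higher in the luteal phase as well, as was 1 of 2 for mast cells (56.9 to 93.0 against 11.6 to 14.0). Both theca markers (17.1 to 69.2 against 139 to 202), 5 of 9 granulosa markers (175 to 775 against 318 to 1334) and 5 of 8 oocyte markers (8.59 to 20.0 against 16.5 to 47.5) were higher in the follicular phase. Of the 6 smooth muscle and pericyte markers 5 were also higher in the follicular phase and 1 in the luteal phase, and their sums did not overlap (648 to 1060 against 1220 to 1519). Ovarian stroma markers were split, with 2 and 2 of 7 (2001 to 3588 against 1833 to 2568). The remaining lists had 1 luteal and 2 follicular calls of 5 for surface epithelium (16.0 to 32.7 against 19.5 to 51.3), 0 and 2 of 3 for ciliated epithelium (5.45 to 8.70 against 8.83 to 14.4), 0 and 1 of 6 for lymphocytes (14.8 to 26.1 against 14.6 to 34.3), 1 and 2 of 3 for neutrophils (5.05 to 16.6 against 13.0 to 52.3), 0 and 1 of 3 for neurons and chromaffin cells (63.1 to 130 against 70.1 to 96.6), 1 and 0 of 3 for adipocytes (0.767 to 1.22 against 0.617 to 0.863) and no call of 1 for red blood cells (0.0279 to 0.758 against 0.140 to 0.567). Several marker lists thus moved with the phase, and the part of cell composition in the transporter values was not tested. Depth relative to luteal replicate 1, read from the smallest steps of the FPKM values, was 0.875 to 1.01 in luteal ovaries and 0.883 to 1.34 in follicular ovaries, and the number of reads behind a value is unknown.

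All 62 transporters together summed to an FPKM of 468 to 524 in the luteal ovaries and 365 to 449 in the follicular ovaries, without overlap. SLC38A2 alone made up 41.7% to 43.5% of this sum in luteal ovaries and 30.7% to 41.3% in the follicular phase. By role, the summed FPKM of SLC38A, which holds SLC38A2, did not overlap (257 to 287 against 163 to 237). Nor did that of the SLC6A carriers of neurotransmitters and osmolytes (18.3 to 36.2 against 9.30 to 14.1). The sums of all other role groups overlapped between the phases, so the total does not describe the members as a set. Only 9 of the 62 had a mean FPKM of at least 10, and 18 of the 50 tested symbols had a mean below 1. Of those 18 low genes 10 were called, and their fold changes are understated by the added 0.1.

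The sodium-coupled neutral amino acid transporters (SLC38A) take up or release small neutral amino acids, above all glutamine and alanine. Of 10 tested members 2 were higher in the luteal phase, near the 15.9% of all genes, and none in the follicular phase, against 27.8%. SLC38A2 (SNAT2) had an FPKM of 201, 211, 204, 215 and 223 in the 5 luteal ovaries and of 114, 143, 184, 177 and 122 in the 5 follicular ovaries. Every luteal ovary was above every follicular ovary, and the follicular ovaries spread much more widely. The means were 211 ± 8.77 and 148 ± 31.7 (SD, n = 5 each), and the log2 fold change was 0.54 ± 0.13 (SE, limma adjusted p = 0.00650). SLC38A10, a less studied member found on intracellular membranes, was at 21.4, 23.5, 21.6, 31.9 and 31.3 in the luteal phase and at 18.2, 18.9, 15.6, 18.2 and 16.9 in the follicular phase. The phases did not overlap, and the log2 fold change was 0.54 ± 0.12 (adjusted p = 0.00519). Its transcript XM_018063612.1 was called in the same direction (adjusted p = 0.0119), and the other tested transcripts of the gene were not called.

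SLC38A1 (SNAT1), the close relative of SLC38A2 and its direct neighbour among protein-coding genes in the RefSeq annotation, was not called. It was at 8.11 to 13.7 against 9.18 to 16.4, with a log2 fold change of -0.32 (95% interval -0.74 to 0.09, adjusted p = 0.187). The ratio of SLC38A2 to SLC38A1 in FPKM was 14.7 to 26.5 in luteal ovaries and 10.5 to 13.3 in follicular ovaries. The balance between the neighbours therefore lay further towards SLC38A2 in each luteal ovary than in any follicular ovary. SLC38A9, the arginine sensor of the lysosome that reports to the growth kinase complex mTORC1, had the smallest spread within either phase of the 48 tested transporters, at 7.76 to 8.41 in luteal ovaries and 8.05 to 8.76 in the follicular phase. Its log2 fold change was -0.07 (95% interval -0.22 to 0.08, adjusted p = 0.448), and it turned to 0.02 with all ovaries at the same median. SLC38A6 (6.39 to 10.1 against 5.93 to 8.39, log2 fold change 0.27, adjusted p = 0.123), SLC38A7 (1.5 to 3.30 against 1.92 to 2.71, 0.12, adjusted p = 0.650) and SLC38A4 (1.21 to 2.21 against 1.31 to 1.76, 0.23, adjusted p = 0.272) overlapped between the phases. SLC38A6 was called without luteal replicate 1, its lowest luteal ovary (adjusted p = 0.0202). SLC38A3, SLC38A5 and SLC38A11 stayed below an FPKM of 1 and had log2 fold changes of -0.07, -0.34 and -0.07, none of them called.

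The sodium- and chloride-coupled carriers of neurotransmitters and osmolytes (part of SLC6A) bring taurine, creatine, glycine, serotonin and GABA into cells. SLC6A6 (TauT), which imports taurine, an osmolyte and a conjugating partner of bile acids, showed the largest log2 fold change of FPKM + 0.1 among the 48 tested transporters, although the ratio of means was larger for the much lower SLC1A2. Its FPKM was 9.83, 11, 20.1, 20.0 and 26.2 in the luteal ovaries and 2.06, 1.58, 1.77, 1.57 and 3.74 in the follicular ovaries. The lowest luteal ovary was well above the highest follicular ovary, which was replicate 5. The means were 17.4 ± 6.90 and 2.15 ± 0.912 (SD, n = 5 each), 8.13 times higher in the luteal phase, with a log2 fold change of 2.95 ± 0.30 (SE, limma adjusted p = 3.14e-05). Of its 5 transcripts 4 were called, all higher in the luteal phase, although XM_018067229.1 passed the filter through the luteal ovaries alone and had to differ. The most abundant, XM_018067228.1, was at 4.28 to 12.6 against 0.519 to 1.89 (adjusted p = 0.00046). The one transcript that was not called, XM_018067230.1, was at 0.0245 to 2.75 in luteal ovaries and 0 to 0.625 in follicular ovaries.

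SLC6A8, the creatine transporter, was at 6.28, 6.40, 6.99, 5.92 and 7.33 in the luteal phase and at 6.12, 8.71, 5.63, 5.30 and 4.83 in the follicular phase. Its phases overlapped, and the log2 fold change was 0.13 ± 0.15 (95% interval -0.19 to 0.45, adjusted p = 0.488). The ratio of SLC6A6 to SLC6A8 thus went from 0.181 to 0.774 in follicular ovaries to 1.57 to 3.58 in luteal ovaries. SLC6A6 held 53.6% to 72.6% of the FPKM of the whole group in luteal ovaries and 11.2% to 30.6% in the follicular phase, and the sum of the group did not overlap between the phases (18.3 to 36.2 against 9.30 to 14.1). SLC6A9, a glycine transporter, lay at 1.42 to 2.00 and 1.33 to 2.77 with a log2 fold change near 0 (95% interval -0.44 to 0.45, adjusted p = 0.987).

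SLC6A4, the serotonin transporter, and SLC6A11, a GABA transporter, were low and higher in the follicular phase. SLC6A4 was at 0.255 to 0.641 in luteal and 0.535 to 1.14 in follicular ovaries (log2 fold change -0.73, adjusted p = 0.0358). SLC6A11 was at 0.00791 to 0.145 and 0.0827 to 0.493 (log2 fold change -1.07, adjusted p = 0.0346). The phases overlapped for both. The call of SLC6A4 was lost without luteal replicate 1, 4 or 5 or follicular replicate 1, 3 or 5 (adjusted p from 0.0566 to 0.0844). It was also lost with TPM (0.0808), without a filter (0.0508), with a term for the replicate number in the model and as a single transcript (0.122). The call of SLC6A11 was lost without luteal replicate 1, 4 or 5 (0.0658 to 0.0824), at a pseudocount of 1 (0.0573) and as a single transcript (0.0868). Without luteal replicate 3 or follicular replicate 1, 2, 3 or 5, SLC6A11 missed the filter and was not tested. SLC6A5, the other glycine transporter, was at 0.0742 to 0.223 against 0.0754 to 0.493 and was not called (log2 fold change -0.61, adjusted p = 0.142), but it was called without follicular replicate 4 (adjusted p = 0.0254).

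**Figure D2:**
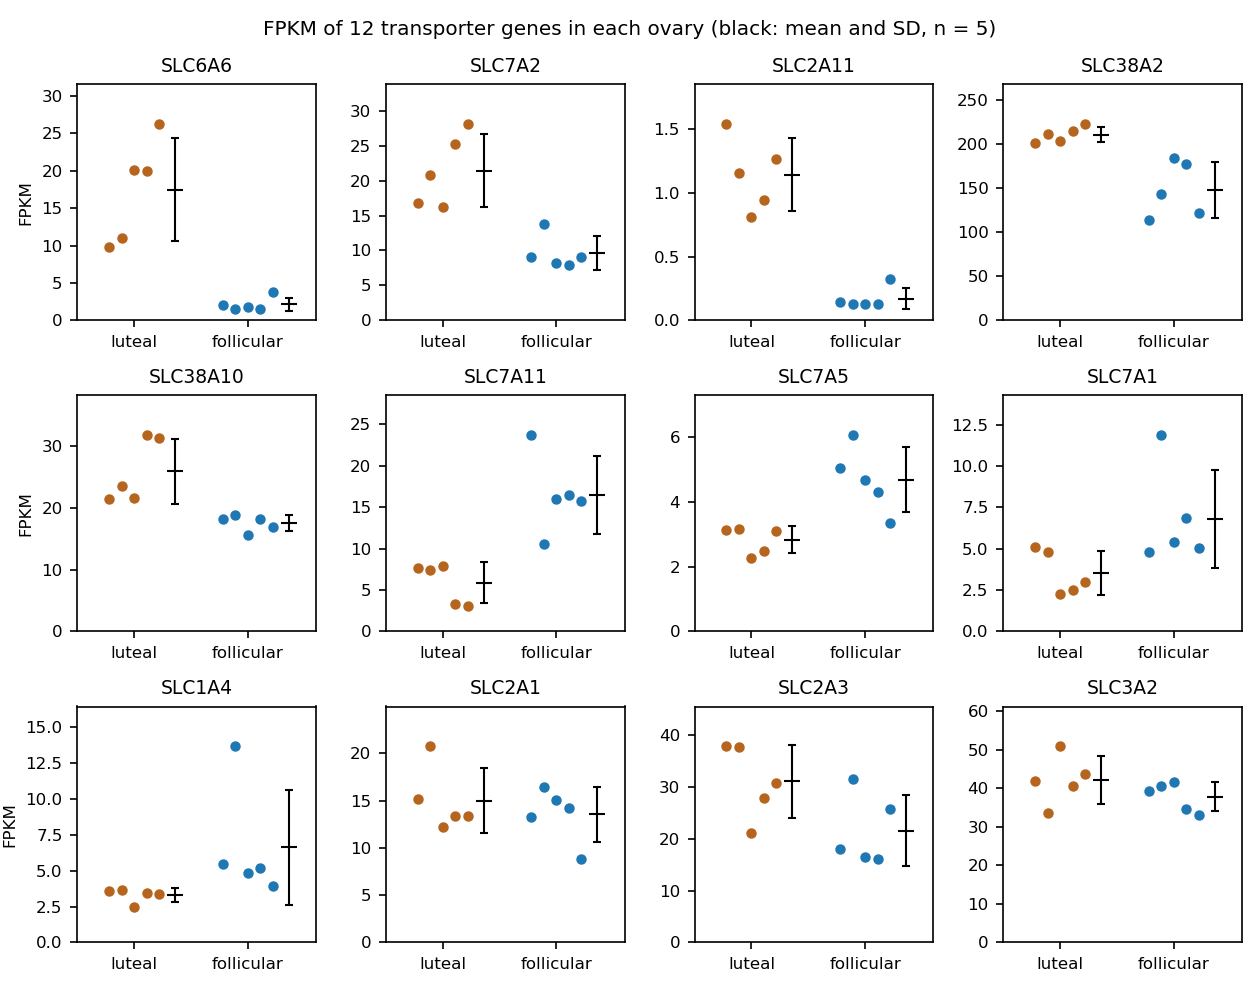
FPKM of 12 transporter genes in each of the 5 luteal (orange) and 5 follicular (blue) ovaries, on linear axes that start at 0, with the mean and SD (n = 5) in black beside the points. For SLC6A6, SLC7A2, SLC2A11, SLC38A2 and SLC38A10 all luteal ovaries lie above all follicular ovaries, for SLC7A11, SLC7A5 and SLC1A4 they lie below, and for SLC7A1, SLC2A1, SLC2A3 and SLC3A2 the phases overlap.

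The cationic amino acid transporters (SLC7A1 to SLC7A4, with the relative SLC7A14) include the carriers of arginine, lysine and ornithine. Of the 4 tested members 1 was higher in luteal ovaries and 3 in the follicular phase, against 15.9% and 27.8% of all genes. Without SLC7A4, which passed the filter through the follicular ovaries alone, 1 and 2 of 3 were called. SLC7A2 (CAT2) was at 16.7, 20.7, 16.2, 25.3 and 28.1 in the luteal ovaries and at 9.07, 13.8, 8.25, 7.91 and 9.03 in the follicular ovaries. Follicular replicate 2 stood apart from the other follicular ovaries but was still below all luteal ovaries. The log2 fold change was 1.14 ± 0.18 (SE, limma adjusted p = 0.000655), with means of 21.4 ± 5.23 and 9.61 ± 2.39 (SD, n = 5 each). Nearly all of this level was 1 transcript, XM_018042020.1.

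SLC7A1 (CAT1), the widely expressed carrier of the same amino acids, was at 5.09, 4.83, 2.26, 2.50 and 2.96 in the luteal phase and at 4.78, 11.9, 5.44, 6.87 and 5.04 in the follicular phase. Luteal replicates 1 and 2 overlapped the follicular range and the other 3 luteal ovaries lay below it. The log2 fold change was -0.92 ± 0.29 (adjusted p = 0.0242), and the call was lost without luteal replicate 3, 4 or 5 (adjusted p = 0.0535, 0.0607 and 0.0524). SLC7A3 (CAT3) was much lower and did not overlap, with 0.200, 0.596, 0.250, 0.352 and 0.381 against 0.71, 0.765, 1.08, 0.956 and 0.759 (log2 fold change -1.11 ± 0.23, adjusted p = 0.00305). SLC7A4, a related protein for which no transport of its own is established, was at 0.0916, 0.0427, 0.0341, 0.0408 and 0.0264 against 0.135, 0.204, 0.144, 0.115 and 0.143 (log2 fold change -0.76 ± 0.20, adjusted p = 0.00940). SLC7A4 reached 0.1 in the follicular ovaries only, so it was tested through the phase in which it was high and had to differ.

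The makeup of the group differed between the phases. SLC7A2 held 75.6% to 89.7% of the summed FPKM of the cationic carriers in luteal ovaries and 49.9% to 61.5% in follicular ovaries, whereas SLC7A1 held 8.87% to 23.0% and 32.5% to 44.6%. Neither range overlapped between the phases. SLC7A2 exceeded SLC7A1 by a ratio of 3.28 to 10.1 in luteal ovaries and of 1.15 to 1.90 in the follicular phase.

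**Figure D3:**
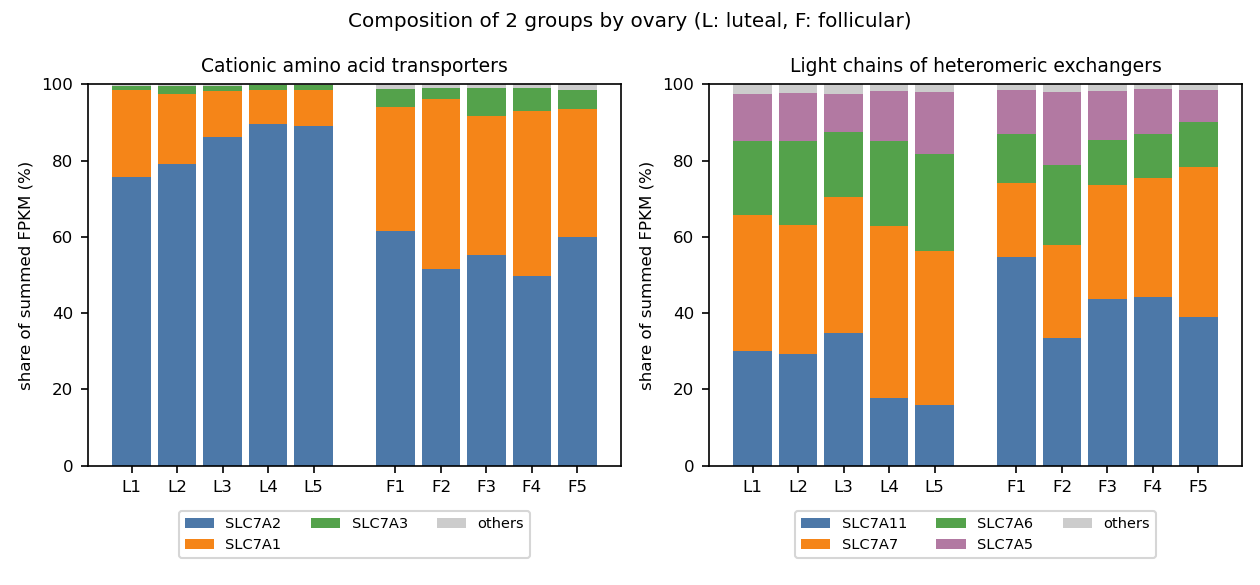
Share (%) of each member in the summed FPKM of the cationic amino acid transporters (left) and of the light chains of the heteromeric exchangers (right), 1 stacked bar per ovary, with luteal replicates L1 to L5 and follicular replicates F1 to F5. SLC7A2 takes 75.6% to 89.7% of the left bars in luteal ovaries and 49.9% to 61.5% in follicular ovaries, and SLC7A11 takes 15.9% to 34.8% and 33.5% to 54.7% of the right bars.

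The heteromeric exchangers join a heavy chain, SLC3A2 (4F2hc, CD98) or SLC3A1 (rBAT), to a light chain of the SLC7A family that carries the substrate. Of 7 tested members none was higher in luteal ovaries and 2 light chains were higher in the follicular phase, a share near the 27.8% of all genes. SLC7A11 (xCT), which imports cystine in exchange for glutamate, was at 7.65, 7.43, 7.95, 3.32 and 3.05 in the luteal ovaries and at 23.7, 10.6, 16.0, 16.4 and 15.8 in the follicular ovaries. The phases did not overlap, and luteal replicates 4 and 5 were the lowest. The means were 5.88 ± 2.47 and 16.5 ± 4.70 (SD, n = 5 each), 2.81 times higher in the follicular phase, with a log2 fold change of -1.55 ± 0.30 (SE, limma adjusted p = 0.00211). Both transcripts of SLC7A11 were called in the same direction, XM_005691243.3 (adjusted p = 0.0119) and XM_018061535.1 (adjusted p = 0.0427).

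SLC7A5 (LAT1), which brings leucine and other large neutral amino acids into the cell, was at 3.14, 3.16, 2.28, 2.49 and 3.11 in the luteal phase and at 5.05, 6.07, 4.68, 4.31 and 3.33 in the follicular phase. Every luteal ovary was below every follicular ovary, by a narrow margin to follicular replicate 5. The log2 fold change was -0.69 ± 0.16 (adjusted p = 0.00585). SLC3A2, the heavy chain that SLC7A5, SLC7A6, SLC7A7, SLC7A8, SLC7A10 and SLC7A11 share, was at 42.0, 33.5, 51.0, 40.6 and 43.7 in the luteal phase and at 39.2, 40.6, 41.6, 34.8 and 33.1 in the follicular phase. Its phases overlapped, with a log2 fold change of 0.15 ± 0.11 (95% interval -0.09 to 0.39, adjusted p = 0.288). The balance of SLC3A2 to the sum of its light chains differed between the phases. The summed FPKM of the light chains was 18.8 to 25.5 in luteal ovaries and 31.6 to 43.4 in follicular ovaries, and the ratio of SLC3A2 to this sum was 1.32 to 2.28 and 0.818 to 1.29. SLC7A11, called by itself, held 15.9% to 34.8% of the sum in luteal ovaries and 33.5% to 54.7% in follicular ovaries. The ratio therefore does not describe the other light chains by themselves.

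SLC7A7 (y+LAT1), an exchanger of cationic for neutral amino acids that is also known from macrophages, was not called as a gene (7.76 to 9.09 against 7.73 to 16.0, log2 fold change -0.33, adjusted p = 0.131). It was called without follicular replicate 2 (adjusted p = 0.0366). Of its 3 transcripts XM_013966889.2 was called, at 0.480 to 1.63 in luteal ovaries and 1.65 to 3.72 in the follicular phase (log2 fold change -1.13, adjusted p = 0.0484). SLC7A6 (y+LAT2) was at 3.89 to 5.58 and 4.27 to 6.61 (log2 fold change -0.11, adjusted p = 0.563), and SLC7A8 (LAT2) at 0.275 to 0.491 and 0.405 to 0.651 (log2 fold change -0.29, adjusted p = 0.230). SLC3A1, the heavy chain known from kidney and gut, was low, and its phases did not overlap (0.142 to 0.219 against 0.0281 to 0.136), but it was not called (log2 fold change 0.52, adjusted p = 0.0676). It was called after quantile normalization (adjusted p = 0.0156), after the shift to a common median (0.0393), without a filter (0.0389) and without the trend term (0.0280). The span of SLC3A1 overlaps that of PREPL in the annotation.

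The SLC2A transporters, most of them facilitative carriers of hexoses, summed to an FPKM of 57.2 to 83.1 in luteal ovaries and 49.3 to 71.9 in follicular ovaries. This sum includes the myo-inositol carrier SLC2A13 and the urate carrier SLC2A9. Of 10 tested members 3 were higher in luteal ovaries and 1 in the follicular phase, against 15.9% and 27.8% of all genes. None of these 4 was among the abundant members. SLC2A3 (GLUT3), the high-affinity glucose transporter, was at 37.9, 37.7, 21.2, 27.9 and 30.7 in the luteal phase and at 18.0, 31.6, 16.5, 16.0 and 25.7 in the follicular phase. Follicular replicates 2 and 5 reached into the luteal range. The log2 fold change was 0.55 ± 0.21 (95% interval 0.08 to 1.01, limma adjusted p = 0.0558), just outside the threshold. It was called with all ovaries at the same median (adjusted p = 0.0380) and with TPM (0.0265), and without luteal replicate 3 (0.0218), follicular replicate 2 (0.0130) or follicular replicate 5 (0.0479). A model with a term for the replicate number called SLC2A3 as well.

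SLC2A1 (GLUT1), the widespread basal glucose transporter, was at 15.2, 20.8, 12.3, 13.4 and 13.4 in the luteal phase and at 13.3, 16.5, 15.1, 14.2 and 8.79 in the follicular phase. All follicular ovaries but replicate 5 lay within the luteal range, with a log2 fold change of 0.15 ± 0.18 (95% interval -0.25 to 0.54, adjusted p = 0.524). Between SLC2A1's transcripts, NM_001314223.1 carried most of the level, and XR_001917157.1, whose RefSeq prefix marks a non-coding model although the table types it as coding, was at 3.36 to 6.33. SLC2A4 (GLUT4), the insulin-regulated transporter of muscle and fat, was low, at 0.417, 0.157, 0.475, 0.290 and 0.519 against 0.322, 0.457, 0.431, 0.365 and 0.701 (log2 fold change -0.27 ± 0.27, 95% interval -0.86 to 0.33, adjusted p = 0.446). It did not pass the threshold, and its interval spans changes in both directions.

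SLC2A11 (GLUT11), a hexose transporter, rose from a low level. It was at 1.54, 1.16, 0.810, 0.946 and 1.27 in the luteal ovaries and at 0.146, 0.128, 0.132, 0.126 and 0.321 in the follicular ovaries, with a log2 fold change of 2.22 ± 0.23 (SE, limma adjusted p = 3.66e-05). Most of this difference lay in 1 of its 9 transcripts. XM_018060905.1 was at 0.508 to 1.35 in the luteal ovaries and was listed at 0 in all 5 follicular ovaries. Without it the level of SLC2A11 was 0.158 to 0.474 in luteal and 0.126 to 0.321 in follicular ovaries, which overlapped. The rest held opposite differences below the filter, since XM_018060900.1 was at 0.0702 to 0.240 in luteal and 0.0113 to 0.0317 in follicular ovaries, and XM_018060901.1 at 0 to 0.0324 and 0.0695 to 0.152.

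SLC2A6 (GLUT6), known from lysosomal membranes, was at 1.76, 1.49, 1.45, 1.91 and 2.19 in the luteal phase and at 1.03, 0.930, 1.04, 0.928 and 1.12 in the follicular phase (log2 fold change 0.73 ± 0.14, adjusted p = 0.00213). SLC2A9 (GLUT9), a transporter of urate, was at 0.5, 0.280, 0.159, 0.165 and 0.231 against 0.0547, 0.0688, 0.113, 0.0823 and 0.104 (log2 fold change 0.93 ± 0.25, adjusted p = 0.0117). Neither overlapped between the phases. SLC2A12 (GLUT12), described as another insulin-responsive glucose transporter, was at 0.570 to 1.13 in luteal and 0.684 to 2.85 in follicular ovaries (log2 fold change -0.88, adjusted p = 0.0398). Its call was lost with TPM (adjusted p = 0.0808), without a filter (0.0580) and as a single transcript (0.112), and when any of 7 single ovaries was left out (luteal replicates 2, 4 and 5 and follicular replicates 1, 3, 4 and 5, adjusted p from 0.0654 to 0.0928). SLC2A8 (7.28 to 11.4 against 5.77 to 10.1, adjusted p = 0.346), SLC2A13, the proton-coupled myo-inositol transporter (7.81 to 9.04 against 6.78 to 10.5, adjusted p = 0.445), and SLC2A10 (2.70 to 3.28 against 1.96 to 3.36, adjusted p = 0.524) had log2 fold changes of 0.20, 0.12 and 0.12 and were not called. SLC2A13 was called without follicular replicate 2, its highest ovary (adjusted p = 0.0285).

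**Figure D4:**
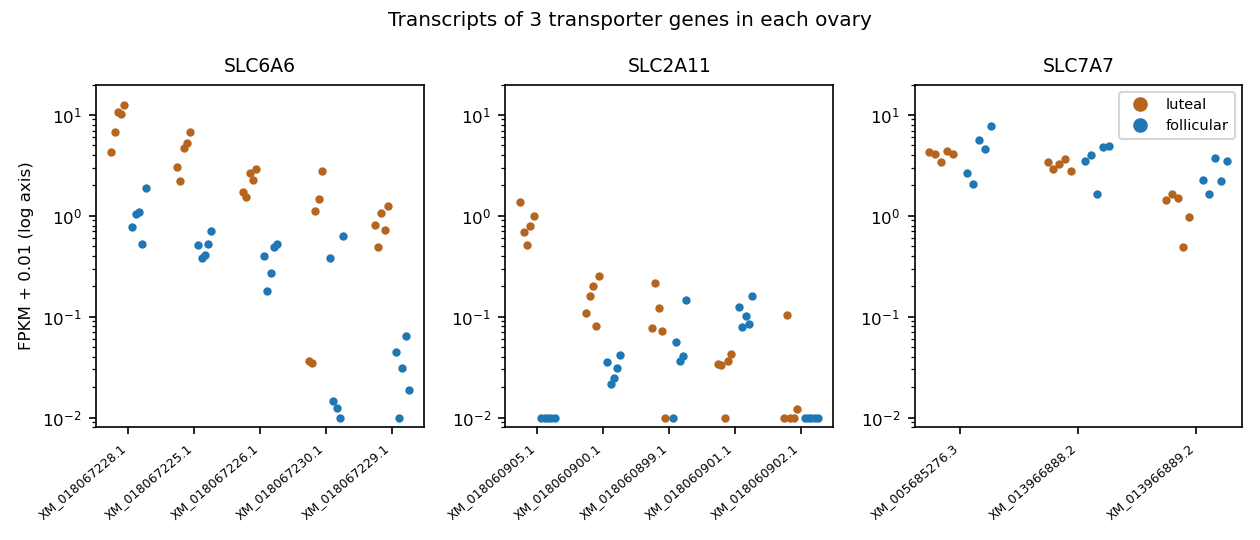
FPKM + 0.01 (log axis) of the annotated transcripts of SLC6A6, SLC2A11 (the 5 most abundant of 9) and SLC7A7 in each luteal (orange) and follicular (blue) ovary, where a point at 0.01 is a transcript listed at 0. For SLC6A6 4 transcripts are higher in every luteal ovary, XM_018060905.1 of SLC2A11 is listed at 0 in all 5 follicular ovaries, and XM_013966889.2 is the only transcript of SLC7A7 whose phases do not overlap.

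The SLC1A family holds the high-affinity glutamate transporters (SLC1A1, SLC1A2, SLC1A3, SLC1A6 and SLC1A7) and the neutral amino acid exchangers SLC1A4 (ASCT1) and SLC1A5 (ASCT2). Of 6 tested members 2 were higher in luteal ovaries and 2 in the follicular phase, against 15.9% and 27.8% of all genes. SLC1A1 (EAAT3), a glutamate transporter that also takes up cysteine, was at 0.163, 0.235, 0.312, 0.393 and 0.383 in the luteal phase and at 0.101, 0.0967, 0.0329, 0.0466 and 0.0315 in the follicular phase. It did not overlap, with a log2 fold change of 1.28 ± 0.24 (SE, limma adjusted p = 0.00153). SLC1A2 (EAAT2), the main glutamate transporter of astrocytes, was also higher in the luteal phase (0.124 to 1.85 against 0.0386 to 0.136, log2 fold change 2.25, adjusted p = 0.00298). The luteal ovaries did not rank alike for these genes, and SLC1A2 was highest in luteal replicates 1 and 2, where SLC1A1 was lowest. Luteal replicate 3 alone lay within the follicular range. The 4 transcripts of SLC1A2 took turns, since in several ovaries 1 was listed at 0 while another carried the level, and none passed the filter alone.

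SLC1A4, which exchanges alanine, serine and cysteine, was at 3.61, 3.66, 2.44, 3.43 and 3.38 in the luteal phase and at 5.48, 13.7, 4.86, 5.21 and 3.91 in the follicular phase. All luteal ovaries were below all follicular ovaries, and follicular replicate 2 was far above the rest. The log2 fold change was -0.84 ± 0.28 (adjusted p = 0.0312) and -0.55 without follicular replicate 2 (adjusted p = 0.0128). It was not called without luteal replicate 3, 4 or 5 (adjusted p = 0.0670, 0.0543 and 0.0537), nor after the shift to a common median (0.0629), with quantile normalization (0.0653) or as a single transcript (0.0805). SLC1A3 (EAAT1) was at 1.66 to 2.75 against 2.16 to 5.01 (log2 fold change -0.65, adjusted p = 0.0411). The call of SLC1A3 was lost with all ovaries at the same median (adjusted p = 0.0896), with quantile normalization (0.110), with TPM (0.0745), without a filter (0.0578) and with transcripts in place of gene sums (0.0951), and when leaving out luteal replicate 2, 3, 4 or 5 or follicular replicate 2, 3 or 4 (0.0565 to 0.0941). A model with a term for the replicate number lost this call as well.

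SLC1A5, the glutamine exchanger of dividing cells, was at 16.2, 15.8, 10.4, 9.85 and 8.49 in the luteal phase and at 13.2, 24.1, 16.0, 14.3 and 13.6 in the follicular phase (log2 fold change -0.43 ± 0.21, 95% interval -0.89 to 0.04, adjusted p = 0.121). Luteal replicates 1 and 2 lay within the follicular range and the other luteal ovaries lay below it. SLC1A6 (EAAT4), known as the glutamate transporter of cerebellar Purkinje cells, was the second most abundant member of the family. It was at 4.15, 3.91, 4.63, 8.66 and 9.31 in the luteal phase and at 12.2, 14.2, 21.2, 17.6 and 2.62 in the follicular phase. Follicular replicate 5 was the lowest of all 10 ovaries, whereas the other 4 follicular ovaries were above every luteal ovary. SLC1A6 was not called (log2 fold change -0.95 ± 0.50, 95% interval -2.05 to 0.14, adjusted p = 0.141), and without follicular replicate 5 the log2 fold change was -1.47 (adjusted p = 0.00287).

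The amino acid carriers of the SLC6A family were low throughout. SLC6A20, a transporter of proline and other imino acids, was at 1.72, 1.63, 0.824, 0.519 and 0.640 in the luteal phase and at 1.55, 0.722, 0.837, 0.697 and 1.72 in the follicular phase (log2 fold change -0.10 ± 0.36, 95% interval -0.88 to 0.69, adjusted p = 0.844). Both phases ran through the same range. SLC6A17, a vesicular transporter of neutral amino acids in neurons, was at 0.519, 0.183, 0.681, 0.608 and 0.920 against 0.109, 0.0660, 0.198, 0.140 and 0.245, and only luteal replicate 2 of the luteal ovaries fell within the follicular range (log2 fold change 1.37 ± 0.33, adjusted p = 0.00706). None of its 4 transcripts passed the filter alone. SLC6A15, a carrier of branched-chain amino acids and proline, was higher in the follicular phase (0.0576 to 0.401 against 0.374 to 0.489, log2 fold change -1.01, adjusted p = 0.0139), but its only transcript was not called in the fit of single transcripts (adjusted p = 0.0522). SLC6A14, a broad carrier of neutral and cationic amino acids, was at 0.0694 to 0.246 against 0.1 to 0.412 and was not called (log2 fold change -0.44, adjusted p = 0.226).

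Of the proton-coupled amino acid transporters (SLC36A), SLC36A4 was at 8.69, 7.16, 9.44, 8.97 and 9.77 in the luteal phase and at 8.29, 6.96, 8.06, 7.28 and 9.36 in the follicular phase. The phases overlapped almost fully (log2 fold change 0.14 ± 0.11, 95% interval -0.10 to 0.38, adjusted p = 0.325). SLC36A2, a carrier of glycine, proline and alanine, did not pass the filter. It was at 0.0462, 0.0151, 0.223, 0.0361 and 0.0917 against 0.537, 0.156, 0.0776, 0.0767 and 0.315.

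Other transporters below the filter had a highest FPKM of 0.203 (SLC7A10), 0.150 (SLC6A13), 0.124 (SLC38A8), 0.0683 (SLC6A2), 0.0571 (SLC7A14), 0.0497 (SLC6A7), 0.0478 (SLC6A16), 0.0464 (SLC2A2), 0.0432 (SLC1A7), 0.0358 (SLC6A19), 0.0312 (SLC6A3) and 0.0279 (SLC6A18). They include SLC2A2 (GLUT2), the glucose transporter of liver and pancreatic beta cells, and the dopamine (SLC6A3) and noradrenaline (SLC6A2) transporters. Of the 14 untested symbols 10 were listed at 0 in at least 1 ovary. Of the pair of non-transporters, SLC2A4RG was higher in the follicular phase (3.74 to 4.69 against 6.50 to 8.34, log2 fold change -0.75, adjusted p = 0.000283), and SLC7A6OS was not called (22.8 to 27.4 against 22.3 to 24.7, adjusted p = 0.211).

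Across single transcripts, 82 of the 139 passed the filter and 19 were called, against 17.3% of all 29061 protein-coding transcripts tested. Of these 19, 11 were higher in luteal ovaries and 8 in the follicular phase, and no gene had transcripts called in opposite directions. These counts include 3 transcripts, of SLC2A11, SLC6A6 and SLC7A4, that passed through 1 phase alone and had to differ, and without them 16 of 79 were called, 9 and 7 by direction. Within a phase the ovaries did not rank alike. Follicular replicates 5 and 2 held the highest follicular value of 17 and 16 of the 48 tested transporters, and luteal replicate 1 the highest luteal value of 15.

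Other genes that handle the carried sugars and amino acids were counted from lists, to be read against the 15.9% of all genes that were higher in the luteal phase and the 27.8% that were lower. Among other transporters of sugars, amino acids, peptides and monocarboxylates, 5 of 18 tested were higher in luteal ovaries and 4 in the follicular phase. SLC16A7 (MCT2), a high-affinity carrier of lactate and pyruvate, rose most (27.5 to 38.8 against 5.65 to 9.99, log2 fold change 2.09, adjusted p = 1.56e-06). SLC17A8, a vesicular glutamate transporter, was higher in the follicular phase (0.0133 to 0.214 against 0.104 to 0.493, log2 fold change -0.98, adjusted p = 0.0308).

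The enzymes that phosphorylate hexoses, and so trap them in the cell, had 0 of 6 tested members higher in luteal ovaries and 4 in the follicular phase. HKDC1, a hexokinase relative, was at 0.112 to 0.278 against 0.298 to 0.990 (log2 fold change -1.02, adjusted p = 0.0243). The summed FPKM of the list was 30.9 to 34.7 in luteal and 39.2 to 43.9 in follicular ovaries. Of 11 genes of insulin-regulated glucose transporter trafficking, 3 were higher in luteal ovaries and 4 in the follicular phase. IRS2, an adaptor of the insulin receptor, was at 1.07 to 3.72 against 4.00 to 6.08 (log2 fold change -1.03, adjusted p = 0.0133), and TBC1D4, which holds SLC2A4 vesicles inside the cell, at 15.5 to 29.5 against 10.9 to 14.7 (log2 fold change 0.76, adjusted p = 0.00585).

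Of 12 genes of the amino acid response, which is switched on when amino acids run short, 1 was higher in luteal ovaries and 3 in the follicular phase. PHGDH, the first enzyme of serine synthesis, was at 3.86 to 7.04 against 7.60 to 18.0 (log2 fold change -1.15, adjusted p = 0.00194), and CHAC1, which breaks down glutathione, at 0.174 to 0.345 against 0.412 to 0.702 (log2 fold change -0.92, adjusted p = 0.00365). Of 20 genes by which mTORC1 senses amino acids, 4 were higher in each phase. RRAGD and RRAGB, which encode GTPases that dock mTORC1 on the lysosome, led the follicular side (0.833 to 1.59 against 2.39 to 3.64, log2 fold change -1.36, adjusted p = 0.000214, for RRAGD, and 4.92 to 5.57 against 7.14 to 9.21, -0.60, adjusted p = 0.000348, for RRAGB).

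Of 17 tested enzymes that use the carried amino acids, 4 were higher in luteal ovaries and 7 in the follicular phase. ARG2, the mitochondrial arginase, showed the largest change of these lists. It was at 87.5, 79.7, 27.5, 46.1 and 40.7 in the luteal ovaries and at 5.38, 7.49, 4.75, 5.32 and 5.00 in the follicular ovaries (log2 fold change 3.20 ± 0.28, adjusted p = 1.05e-05). ARG2 acts on arginine, which SLC7A2 carries, and both were higher in every luteal ovary than in any follicular ovary. The phases did not overlap for 28.4% of all genes, and a link between ARG2 and SLC7A2 was not tested. CSAD, an enzyme of taurine synthesis, was at 7.46 to 14.1 against 3.38 to 5.12 (log2 fold change 1.23, adjusted p = 0.000451). Both named enzymes were among the 4 luteal calls. The lists had medians of -0.03 (other transporters), -0.70 (hexose phosphorylation), -0.13 (trafficking), -0.11 (amino acid response), 0.02 (mTORC1 sensing) and -0.13 (use of amino acids) on the log2 scale, beside -0.14 over all genes.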

How the data were processed

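The deposited values are FPKM per transcript and ovary, which the authors obtained with Cuffdiff after alignment by HISAT2 and assembly by StringTie. No ovaries were pooled. The genome build and the use of strand in counting are not given in the sources used here, so reads of overlapping or antisense genes may be shared. FPKM of protein-coding transcripts was summed by gene symbol. All 64 symbols matched a RefSeq gene table for assembly ARS1.2, which was used for neighbours only. Genes that reached an FPKM of 0.1 in 5 or more of the 10 ovaries were tested with limma 3.58.1 (lmFit, eBayes with trend) in R 4.3.3 on log2(FPKM + 0.1), with no block. The step was tested on simulated data. The labels state no pairing of ovaries. Ovaries with equal replicate numbers correlated weakly, but 5 ovaries per phase are too few to exclude a pairing.

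In each role group full values are given for up to 4 called members without overlap that changed most, for the 2 most abundant, and for SLC3A2, SLC7A5, SLC7A11, SLC2A1, SLC2A3 and SLC2A4. From each pathway list the 2 called genes that changed most are named. Some genes are not reported here by name, although the counts and sums include them. The members and lists were chosen with earlier results of these data known. CYP11A1 and CYP17A1 were found as LOC102173131 and LOC102182663, and HSD3B1 was not analysed here. Sequences were not used here, and the planned comparisons of promoters and proteins were not run. Alternatives were other pseudocounts, filters, scalings and variance settings, a replicate block, single transcripts, and every fit with 1 ovary left out. Read counts were not used here, and precision rests on the spread between ovaries. Python 3.11.15 with pandas 2.3.3 and matplotlib 3.10.9 did the rest.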

Additional observations from a re-analysis of the deposited data

Results flagged for a closer look

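Among 96 groups of 5 ovaries (48 tested transporters in each phase), 12 held an ovary whose gap to the nearest other ovary was an unusually large part of the group's range by Dixon's test, where a chance of 1 in 20 gives 4.8. Follicular replicate 2 was the highest of its phase for SLC7A2 (13.8, others 7.91 to 9.07), SLC2A13 (10.5, others 6.78 to 7.35), SLC1A5 (24.1, others 13.2 to 16.0), SLC1A4 (13.7, others 3.91 to 5.48), SLC1A2 (0.136, others 0.0386 to 0.0657) and SLC6A9 (2.77, others 1.33 to 1.71), all in FPKM. Follicular replicate 5 was the highest for SLC2A11 (0.321, others 0.126 to 0.146) and SLC6A6 (3.74, others 1.57 to 2.06), and follicular replicate 4 for SLC38A4 (1.76, others 1.31 to 1.39). Luteal replicate 1 was the highest for SLC7A4 (0.0916, others 0.0264 to 0.0427) and the lowest for SLC38A6 (6.39, others 9.11 to 10.1). Luteal replicate 3 was the lowest for SLC1A4 (2.44, others 3.38 to 3.66).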

How the results depend on the processing

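Over all alternatives 15 to 23 members were called (22 as reported), 15 of them at a minimum FPKM of 0.5 and 15 with single transcripts. At that minimum 6 were higher in the luteal phase, against 10, because only 35 members were tested. Single transcripts gave 7 higher in the follicular phase, against 12. Leaving out 1 ovary left 6 to 10 on the follicular side, with 6 without luteal replicate 4 or 5 and 7 without follicular replicate 3. Some of these were untested rather than lost, SLC7A4 whichever follicular ovary was left out and SLC6A11 without luteal replicate 3 or follicular replicate 1, 2, 3 or 5. Leaving out either of these luteal ovaries cost the calls of SLC7A1, SLC2A12, SLC1A4, SLC1A3, SLC6A4 and SLC6A11. No called member changed direction. Uncalled members did: SLC2A10 (-0.11) and SLC38A5 (0.22) with transcripts, SLC6A9 at a pseudocount of 1 (-0.0054) and SLC38A9 after the shift to a common median (0.018) and with TPM (0.031). SLC38A3 was 0.014, 0.059 and 0.017 and SLC38A11 0.020, 0.096 and 0.029 with shift, quantile and TPM, and SLC6A20 was 0.31 with transcripts. Leaving out 1 ovary gave log2 fold changes of -0.069 to 0.18 for SLC6A9, -0.29 to 0.10 for SLC6A20, -0.20 to 0.13 for SLC38A3 and -0.34 to 0.18 for SLC38A11. The cause was not tested. With a replicate block 22 members were called, 20 of them in common, and SLC1A3 (adjusted p = 0.0652) and SLC6A4 (0.0510) were lost while SLC2A3 (0.0145) and SLC1A5 (0.0484) were gained. Deviations of ovaries with equal numbers correlated across genes at r of 0.0259 to 0.199, and only numbers 2 and 4 matched best with their own. The reads behind each value are unknown, so the depth limit of low genes could not be given.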
